A study of Mus musculus with 10 samples.

Results

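The genes of glycolysis and of the fate of pyruvate described here are 36, chosen by name from the 35087 gene symbols in the tables of laser-captured mouse granulosa cells: 2 glucose transporters, 2 hexokinases, 14 genes of the later glycolytic steps, 4 PFKFB regulators, 2 lactate dehydrogenase subunits, 2 monocarboxylate transporters, 2 subunits of the mitochondrial pyruvate carrier, 4 genes of the pyruvate dehydrogenase complex, 3 of its kinases, and pyruvate carboxylase. All 36 were present in every table, and 33 passed the filter for low counts. Glycolysis splits glucose into pyruvate, and the cell then reduces the pyruvate to lactate and exports it, or carries it into the mitochondrion for oxidation or carboxylation. In the ovarian follicle, granulosa cells are known for an active glycolysis that supplies pyruvate to the oocyte, which uses glucose poorly itself. Many enzymes of the pathway have isozymes encoded by separate genes, and several of those genes are textbook targets of HIF-1, the oxygen-regulated transcription factor in the title of the study.

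The NAC group held 4 libraries from 3-week-old wild-type female C57B6/J mice injected intraperitoneally with N-acetyl-l-cysteine (abbreviated NAC, a thiol antioxidant) at 150 mg/kg on 3 consecutive days. The saline group held 6 libraries from mice of the same strain, sex, age and genotype given saline on the same schedule, and ovaries of both groups were taken on day 4 after the first injection. Granulosa cells were captured by laser microdissection and their polyadenylated RNA was amplified by the GEO-seq protocol, which is made for small captured areas. The labels do not tie libraries to animals, so each p-value reflects only how much these samples varied, and that variation may be technical.

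The NAC libraries held 1295412, 509945, 116461 and 1667181 estimated reads in replicates 1 to 4, against 1340324 to 2488408 in saline. Reads were present for 84.8% of tested genes in NAC 2 and 85.1% in NAC 3, the sparsest libraries, and for 97.7% to 99.5% elsewhere. CPM are read counts scaled to the size of the library multiplied by its TMM factor, a normalisation by edgeR. That factor was 1.10, 0.972, 1.09 and 1.14 in NAC 1 to NAC 4 and 0.885 to 1.09 in saline. In NAC 3 a single read was worth 8.05 CPM. Genes under 24.2 CPM, the worth of 3 reads, were thus close to or below the limit of detection in NAC 3. Granulosa cell markers (14 genes, all detected) summed to 7267 to 13725 CPM in NAC and 11690 to 41727 CPM in saline, with saline 1 and saline 2 at 11690 and 14864 CPM and the other saline libraries at 36238 CPM or more. Inha, the inhibin alpha subunit, made up most of the mean sum, at 6315 CPM on average in NAC and 23338 CPM in saline. Foxl2 (means of 130 CPM in NAC and 161 CPM in saline), Nr5a2 (256 and 245 CPM) and Esr2 (253 and 277 CPM) differed less. In the same order, means were 336 and 1087 CPM for Hsd17b1, 44.9 and 99.4 CPM for Fshr, and 41.0 and 433 CPM for Inhba. Kitl went the other way, at 42.3 and 15.7 CPM. Of the 14, 4 were lower in NAC and 1 higher at an unadjusted edgeR p under 0.05, against 8.34% and 7.82% of all tested genes. Oocyte markers (14 genes) summed to 244 to 1583 CPM in NAC and 6.66 to 1970 CPM in saline. Theca and stroma markers (12 genes) summed to 193 to 2351 CPM in NAC and 133 to 1376 CPM in saline, and endothelial markers (6 genes) to 48.3 to 180 CPM in NAC and 9.01 to 44.1 CPM in saline. Leukocyte markers (6 genes) reached at most 45.0 CPM in NAC and 16.0 CPM in saline, and red cell markers (5 genes) 851 CPM in NAC (in NAC 4, with 56.3 CPM or less in the other NAC libraries) and 85.7 CPM in saline. In bulk RNA of this kind, fewer cells of a type and less RNA per cell cannot be told apart.

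The pathway genes took a smaller share of the reads after NAC. They held 0.894%, 0.649%, 0.867% and 0.823% of the reads with a gene symbol in NAC 1 to NAC 4, against 1.09% to 1.30% in the saline libraries, and the groups did not overlap. The glycolytic steps from Gpi1 to Pkm carried most of that, with summed levels of 5989, 2901, 3529 and 4496 TPM (a level per transcript length, scaled to the library) in NAC 1 to NAC 4 and 6045 to 7057 TPM in saline. The lactate dehydrogenase subunits summed to 852 to 1815 TPM in NAC and 1573 to 2275 TPM in saline, so those groups overlapped. The pyruvate carrier (162 to 316 TPM in NAC and 141 to 343 TPM in saline) and the pyruvate dehydrogenase complex (135 to 425 TPM in NAC and 195 to 256 TPM in saline) also overlapped, with NAC values on both sides of the saline values for the complex.

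**Figure D1:**
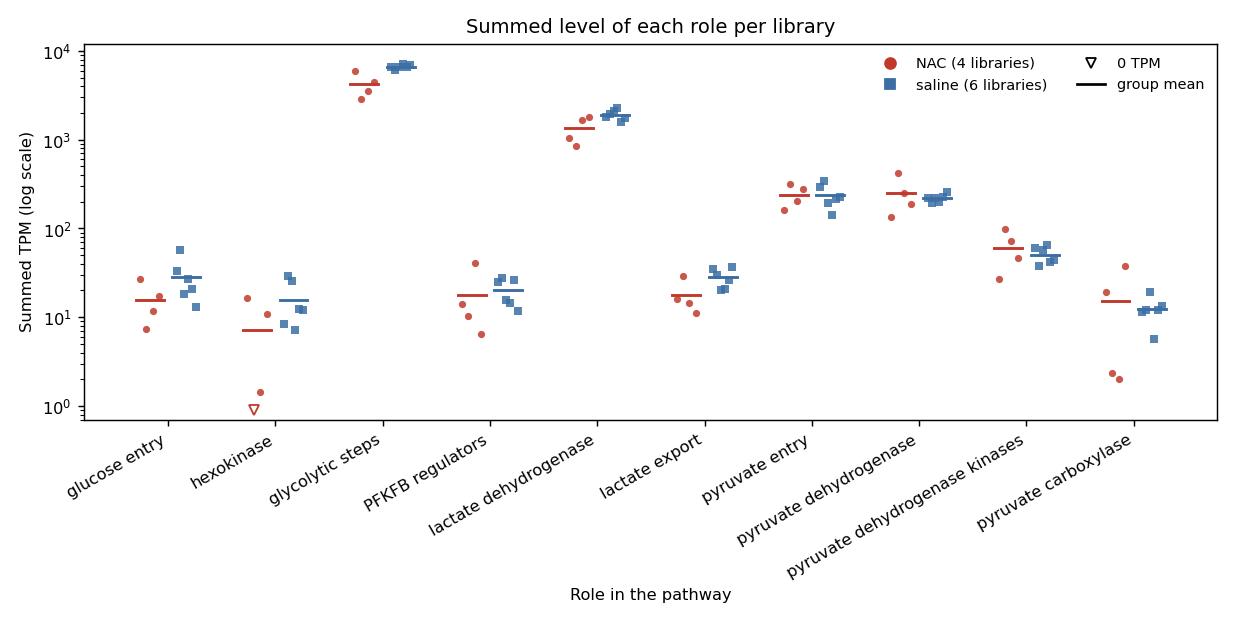
Summed TPM of each role in the pathway (log scale) in the 4 NAC libraries (circles, left) and the 6 saline libraries (squares, right), with bars at the group means and an open triangle for a sum of 0. The glycolytic steps lie lower in all NAC libraries (5989 TPM at most) than in any saline library (6045 TPM at least), while pyruvate entry, pyruvate dehydrogenase and its kinases overlap.

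Of the 33 tested genes, 25 had a log2 fold change (NAC over saline) below 0, where 49.0% of all 10945 tested genes did, and their median was -0.58, where that of all tested genes was 0.02. By edgeR's quasi-likelihood test 0 passed an adjusted p of 0.05, a limit that 0.0731% of all tested genes passed and 0.0548% passed with a lower value in NAC. At an unadjusted p under 0.05 there were 10, where 16.2% of all tested genes were. All 10 were lower in NAC, as were 8.34% of all tested genes, and 0 were higher, against 7.82%. In CPM the NAC libraries all lay below the saline libraries in 8 of the 33, against 3.43% of all tested genes, and all above in 0, against 1.96%. In TPM the groups overlapped for Slc2a1, Hk2, Gpi1 and Eno1 of these 8, and stayed apart for Pfkl, Aldoa, Tpi1 and Pkm. The separation in CPM also depended on the TMM factor. With reads scaled by library size alone, NAC 1 lay above the lowest saline library for Slc2a1, Hk2 and Gpi1. On that scale the groups stayed apart for Pfkl, Aldoa, Tpi1, Eno1 and Pkm. DESeq2 called 5 of the 33 (Slc2a1, Pfkl, Aldoa, Tpi1 and Pkm), where it called 4.61% of all genes. limma-voom with sample quality weights called 7 (Pfkl, Aldoa, Tpi1, Gapdh, Eno1, Pkm and Slc16a1), where it called 4.08%, and edgeR without a filter for low counts called 2 (Pfkl and Pkm), where it called 1.06%.

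**Figure D2:**
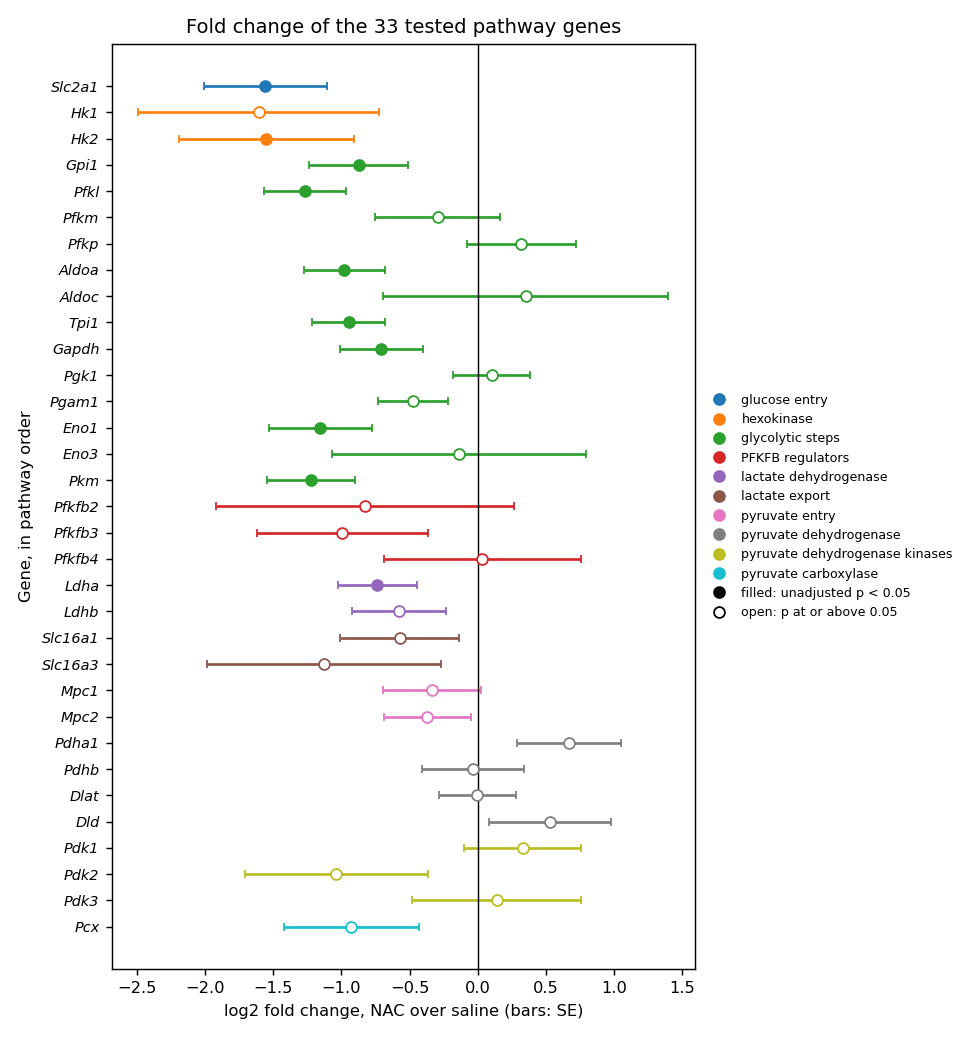
Log2 fold change, NAC over saline, of the 33 tested genes in pathway order, with bars of 1 SE, coloured by role. The SE was derived as the absolute log2 fold change over the square root of edgeR's F statistic. Filled points mark the 10 genes at an unadjusted p under 0.05, all left of 0 and all between Slc2a1 and Ldha, and the pyruvate dehydrogenase genes and their kinases straddle 0.

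Glucose enters through transporters of the SLC2A family. Slc2a1 (GRCm38 chromosome 4, 119108711 to 119137983), which encodes GLUT1, had 28.9, 16.4, 24.2 and 17.2 CPM in NAC 1 to NAC 4, against a lowest, median and highest value of 30.7, 57.2 and 127 CPM in saline. In CPM all NAC libraries lay below all saline libraries, but in TPM NAC 1 (19.5 TPM) lay above saline 6 (11.6 TPM). The log2 fold was -1.56 (SE 0.45, edgeR adjusted p = 0.119). Slc2a3, which encodes the neuronal-type transporter GLUT3, was among the 3 genes under the filter for low counts, with 0 to 6.45 CPM in NAC and 0.451 to 3.11 CPM in saline. Slc2a1 made up 71.7% and 57.8% of the TPM of both transporters in NAC 1 and NAC 4 and 88.2% to 99.8% in saline, while NAC 2 and NAC 3 held under 10 reads of the pair and were left out. With 2 NAC libraries the exact permutation test cannot go below p = 0.0714, which is the value it gave (adjusted p = 0.393 over the 11 shares and ratios tested). The Slc2a3 share in NAC 1 and NAC 4 came from 3.02 and 12.0 estimated reads, and counted in reads instead of TPM the difference in share, NAC minus saline, was -13.7 percentage points instead of -32.3.

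Hexokinases trap glucose in the cell as glucose-phosphate. Hk2, the inducible form (chromosome 6, 82725025 to 82774454), had 13.0, 0, 8.05 and 10.2 CPM in NAC 1 to NAC 4, and 13.7, 26.1 and 37.9 CPM as lowest, median and highest value in saline. In CPM the groups did not overlap (log2 fold -1.55, SE 0.64, edgeR adjusted p = 0.248), although the NAC 3 value was 1 read. In TPM NAC 1 (12.5 TPM) and NAC 4 (10.4 TPM) lay inside the saline range of 2.37 to 23.7 TPM. Hk1, the widely expressed form, had 0 to 13.7 CPM in NAC and 4.85 to 21.6 CPM in saline. The Hk2 share of hexokinase TPM was 76.5% and 95.5% in NAC 1 and NAC 4 and 33.3% to 84.5% in saline (exact permutation p = 0.286, adjusted p = 1, NAC 2 and NAC 3 left out with under 10 reads).

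Phosphofructokinase takes the first committed step of glycolysis, and its 3 subunit genes had unlike values. Pfkl, the liver-type subunit (chromosome 10, 77986947 to 78010083), had the smallest p of all the pathway genes: 125, 59.4, 64.4 and 131 CPM in NAC 1 to NAC 4, against 177, 243 and 307 CPM as lowest, median and highest value in saline. No NAC library reached the lowest saline library, and the log2 fold was -1.26 (SE 0.30, edgeR adjusted p = 0.0814), or -0.75 in a fit with offsets for GC content and length. Pfkm, the muscle-type subunit, had 6.14 to 56.4 CPM in NAC and 25.4 to 53.2 CPM in saline, and Pfkp, the platelet-type subunit, 27.4 to 129 CPM in NAC and 34.3 to 59.9 CPM in saline, so both overlapped. Pfkl made up 40.1%, 29.0%, 20.0% and 62.8% of the phosphofructokinase TPM in NAC 1 to NAC 4, and 59.4% to 69.4% in saline. The mean share was 38.0% across the 4 NAC libraries (SD 18.5) and 64.9% across the 6 saline libraries (SD 3.34), a difference of -27.0 percentage points (exact permutation p = 0.0190, adjusted p = 0.210), which did not pass. Without NAC 2 and NAC 3 the difference was -13.5 percentage points (exact permutation p = 0.143, where 0.0714 is the smallest possible). Pfkp held 37.8%, 66.9%, 56.8% and 14.9% in NAC 1 to NAC 4 and 16.0% to 20.3% in saline. NAC 4 sat within the saline range for Pfkl and just under it for Pfkp, and the NAC 2 and NAC 3 shares rest on 54.5 and 31.0 reads of the family.

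The PFKFB enzymes make and remove the sugar bisphosphate that activates phosphofructokinase, and their transcripts were scarce. Pfkfb4, with the largest mean share of the family, had 16.6, 18.4, 0 and 2.69 CPM in NAC 1 to NAC 4 and 4.96, 10.7 and 15.4 CPM as lowest, median and highest value in saline (log2 fold change 0.03, SE 0.72, edgeR adjusted p = 0.986). NAC 1 and NAC 2 lay above the saline libraries and NAC 3 and NAC 4 below them. Pfkfb3, the kinase-dominant isoform, had 2.05 to 16.1 CPM in NAC and 7.21 to 43.0 CPM in saline. Its share of the family's TPM was 4.64% to 70.7% in NAC and 15.9% to 48.4% in saline (exact permutation p = 1, adjusted p = 1, NAC 3 left out with under 10 reads). Pfkfb2 had 0 to 24.2 CPM in NAC and 1.95 to 17.0 CPM in saline, and Pfkfb1, under the filter, 0 to 8.05 CPM in NAC and 0 to 9.22 CPM in saline.

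Gpi1, glucose-phosphate isomerase (chromosome 7, 34201330 to 34230336), had 361, 57.3, 226 and 247 CPM in NAC 1 to NAC 4 and 377, 393 and 493 CPM as lowest, median and highest value in saline (log2 fold change -0.87, SE 0.36, edgeR adjusted p = 0.250). Aldoa, the ubiquitous aldolase (chromosome 7, 126795234 to 126800751), had 1336, 524, 967 and 960 CPM in NAC 1 to NAC 4 and 1388, 1967 and 2246 CPM in saline (log2 fold change -0.98, SE 0.30, edgeR adjusted p = 0.137). In CPM neither gene's groups overlapped, with NAC 1 closest to saline and NAC 2 farthest from it in both. In TPM those of Gpi1 overlapped, with NAC 1 (357 TPM) and NAC 4 (274 TPM) inside the saline range of 255 to 431 TPM. Without NAC 2 the log2 fold of Gpi1 was -0.56. With the GC and length offsets that of Aldoa was -0.35. Tpi1, triose-phosphate isomerase (chromosome 6, 124810586 to 124814296), had 360, 625, 290 and 337 CPM in NAC 1 to NAC 4 and 647, 775 and 924 CPM in saline. For Tpi1 the NAC library closest to saline was NAC 2, and the groups again did not overlap (log2 fold -0.95, SE 0.27, edgeR adjusted p = 0.113). The log2 fold of Tpi1 was -0.49 under the GC and length offsets. Without NAC 2 its edgeR adjusted p was 0.0319, in a fit that called 39 of 11540 genes. With any other single library left out, the edgeR adjusted p of Tpi1 was 0.0886 to 0.221. Aldoc, the brain-type aldolase, had 0 to 14.5 CPM in NAC and 0 to 12.5 CPM in saline, so Aldoa held 98.7% to 100% of aldolase TPM in NAC and 99.2% to 100% in saline (exact permutation p = 0.667, adjusted p = 1).

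Among the enzymes of the payoff phase, values were mixed. Gapdh, which oxidises glyceraldehyde-phosphate (chromosome 6, 125161715 to 125166467), had 2089, 1409, 910 and 1331 CPM in NAC 1 to NAC 4 and 1469, 2315 and 3281 CPM as lowest, median and highest value in saline. NAC 1 lay inside the saline range and the other NAC libraries below it (log2 fold -0.71, SE 0.31, edgeR adjusted p = 0.267, and -0.40 with the GC and length offsets). Pgk1, phosphoglycerate kinase (chromosome X, 106187100 to 106203699), had 183, 444, 459 and 242 CPM in NAC 1 to NAC 4 and 245, 314 and 344 CPM in saline. NAC 2 and NAC 3 lay above all saline libraries and NAC 1 and NAC 4 below them, and the log2 fold of 0.10 (SE 0.28, edgeR adjusted p = 0.885) became -0.55 without NAC 2 and NAC 3. Pgam1, phosphoglycerate mutase (chromosome 19, 41911923 to 41918660), had 500, 764, 789 and 444 CPM in NAC 1 to NAC 4 and 735, 861 and 1002 CPM in saline, with NAC 2 and NAC 3 inside the saline range (log2 fold -0.47, SE 0.26, edgeR adjusted p = 0.370). The log2 fold of Pgam1 was -0.09 with the GC and length offsets and -0.91 without NAC 2 and NAC 3.

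Enolase and pyruvate kinase close the pathway. Eno1, the ubiquitous enolase (chromosome 4, 150236721 to 150248879), had 943, 182, 918 and 684 CPM in NAC 1 to NAC 4 and 1053, 1452 and 2063 CPM as lowest, median and highest value in saline. Pkm, pyruvate kinase (chromosome 9, 59656368 to 59679375), had 606, 221, 516 and 605 CPM in NAC 1 to NAC 4 and 704, 1138 and 1559 CPM in saline. In CPM the groups overlapped for neither gene, with log2 folds of -1.15 (SE 0.38, edgeR adjusted p = 0.168) for Eno1 and -1.22 (SE 0.32, edgeR adjusted p = 0.0975) for Pkm. With the GC and length offsets they were -0.54 for Eno1 and -0.57 for Pkm. In TPM the groups overlapped for Eno1, with NAC 1 at 751 TPM and the lowest saline library at 663.5 TPM. The tables give 1 value per gene, so the splice forms PKM1 and PKM2 were not told apart. Eno1 held 96.2% to 100% of enolase TPM in NAC and 96.7% to 99.7% in saline (exact permutation p = 0.933, adjusted p = 1). Eno3, the muscle enolase, had 0 to 30.3 CPM in NAC and 0.471 to 30.6 CPM in saline, and Eno2, the neuronal enolase and the third gene under the filter, 0 to 2.89 CPM in NAC and 0 to 2.56 CPM in saline.

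**Figure D3:**
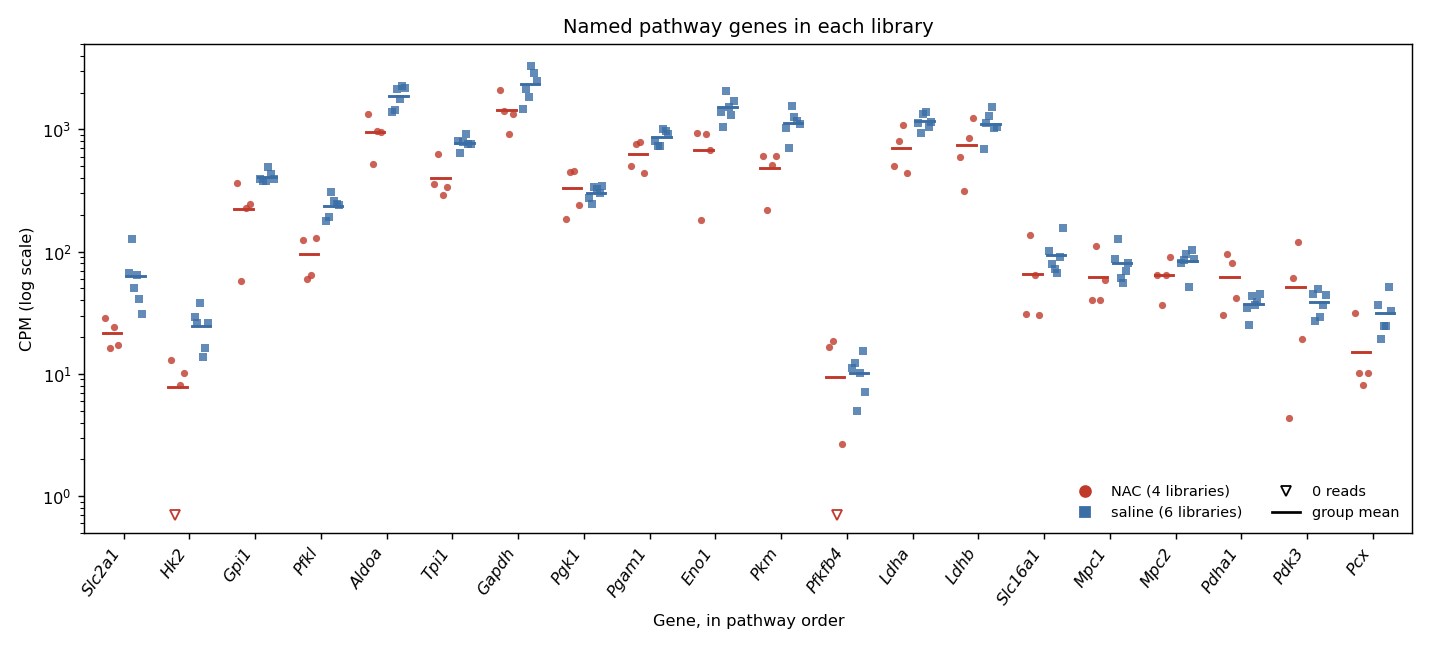
CPM (log scale) of the 20 named pathway genes in the 4 NAC libraries (circles, left) and the 6 saline libraries (squares, right), with bars at group means and open triangles for 0 reads. The groups are apart for Slc2a1, Hk2, Gpi1, Pfkl, Aldoa, Tpi1, Eno1 and Pkm, and overlap for the other 12.

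The promoters of the 4 genes with the smallest p (Pfkl, Pkm, Tpi1 and Slc2a1) are shown because their values were all lower in NAC and the study concerns HIF-1, whose binding element has the core ACGTG or GCGTG. Each line gives 250 bases before and 50 bases after a RefSeq start on GRCm38.p6, 5′ to 3′ on the gene's strand, with matches to ACGTG or GCGTG on either strand in capitals (CACGT and CACGC are the same cores on the other strand, and the E-box CACGTG would count on both). For Pkm, which has 2 starts in the table, the downstream start is shown.
Slc2a1, chr4:119108495-119108794, + strand: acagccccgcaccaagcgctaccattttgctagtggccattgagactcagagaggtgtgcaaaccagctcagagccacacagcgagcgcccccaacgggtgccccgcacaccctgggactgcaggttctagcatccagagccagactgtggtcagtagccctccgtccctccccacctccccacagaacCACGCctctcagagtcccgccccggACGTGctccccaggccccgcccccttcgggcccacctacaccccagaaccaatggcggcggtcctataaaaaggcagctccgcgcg
Pfkl, chr10:78009758-78010057, - strand: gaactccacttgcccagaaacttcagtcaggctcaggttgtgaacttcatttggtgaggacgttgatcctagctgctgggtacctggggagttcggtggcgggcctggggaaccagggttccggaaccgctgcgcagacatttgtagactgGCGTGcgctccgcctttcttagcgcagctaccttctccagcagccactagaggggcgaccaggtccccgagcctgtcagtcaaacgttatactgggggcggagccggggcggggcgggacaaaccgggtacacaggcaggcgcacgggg
Pkm, chr9:59656977-59657276, + strand: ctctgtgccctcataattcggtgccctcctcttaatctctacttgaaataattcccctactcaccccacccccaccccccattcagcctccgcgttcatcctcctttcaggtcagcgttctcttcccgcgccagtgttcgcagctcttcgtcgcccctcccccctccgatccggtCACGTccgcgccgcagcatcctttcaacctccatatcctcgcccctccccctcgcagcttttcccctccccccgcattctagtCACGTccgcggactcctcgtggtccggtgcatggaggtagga
Tpi1, chr6:124814109-124814408, - strand: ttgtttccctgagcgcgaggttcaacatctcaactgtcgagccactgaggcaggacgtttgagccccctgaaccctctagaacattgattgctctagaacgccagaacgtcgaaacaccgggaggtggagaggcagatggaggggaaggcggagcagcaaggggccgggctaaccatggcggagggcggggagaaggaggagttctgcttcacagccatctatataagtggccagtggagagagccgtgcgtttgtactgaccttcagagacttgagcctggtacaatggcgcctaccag

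The Slc2a1 window held 2 matches, the Pfkl window 1, the Pkm window 2 and the Tpi1 window 0. The upstream Pkm window held 0. Of the 56 windows found for 35 of the 36 pathway genes, 71.4% held at least 1 match, against 63.4% of the 10882 windows of tested genes and 43.8% of all 32851 windows. Median GC content was 61.0% in the windows of pathway genes and in those of tested genes, and 52.7% in all windows. Some windows of 1 gene, as for Aldoa and Eno1, overlap and hold the same matches. The Ldha table entry with the most matches held 7, and Dlat, Dld, Eno2, Gpi1 and Tpi1, each with 1 start, held 0. These are letter matches in a fixed window.

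Pyruvate is exchanged with lactate by lactate dehydrogenase, whose A subunit is known to favour lactate formation and whose B subunit favours pyruvate. Ldha (chromosome 7, 46841475 to 46855627) had 502, 797, 1087 and 437 CPM in NAC 1 to NAC 4 and 932, 1135 and 1400 CPM as lowest, median and highest value in saline. NAC 3 lay inside the saline range and the others below it (log2 fold -0.74, SE 0.29, edgeR adjusted p = 0.231, and -1.35 without NAC 2 and NAC 3). Ldhb (chromosome 6, 142490249 to 142507957) had 597, 315, 846 and 1228 CPM in NAC 1 to NAC 4 and 690, 1087 and 1514 CPM in saline, with NAC 3 and NAC 4 inside the saline range (log2 fold -0.58, SE 0.34, edgeR adjusted p = 0.415). The log2 fold of Ldhb was -1.04 without NAC 4 and -0.34 without NAC 2, -0.95 with the oocyte marker score as a covariate and -0.31 with the GC and length offsets. Per length both subunits were abundant: in saline Ldhb stood at 1063 ± 204 TPM and Ldha at 852 ± 123 TPM (SD, n = 6), below Gapdh (2039 ± 406 TPM) and Aldoa (1459 ± 174 TPM) and close to Eno1 (867 ± 180 TPM).

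The balance of the 2 lactate dehydrogenase subunits varied widely among NAC libraries. Ldha made up 39.1%, 62.3%, 47.1% and 21.6% of the subunits' TPM in NAC 1 to NAC 4, and 39.2% to 45.1% in saline except for saline 1, at 55.4%. The highest and the lowest share of all libraries were thus both after NAC, and the mean share was 42.5% across the 4 NAC libraries (SD 17.0) and 44.7% across the 6 saline libraries (SD 5.65; exact permutation p = 0.790, adjusted p = 1). NAC 4, with the lowest share, held 1583 CPM of oocyte markers. Saline 4, with 1970 CPM, had a share of 41.3%, and the part of oocyte RNA in the share was not tested.

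**Figure D4:**
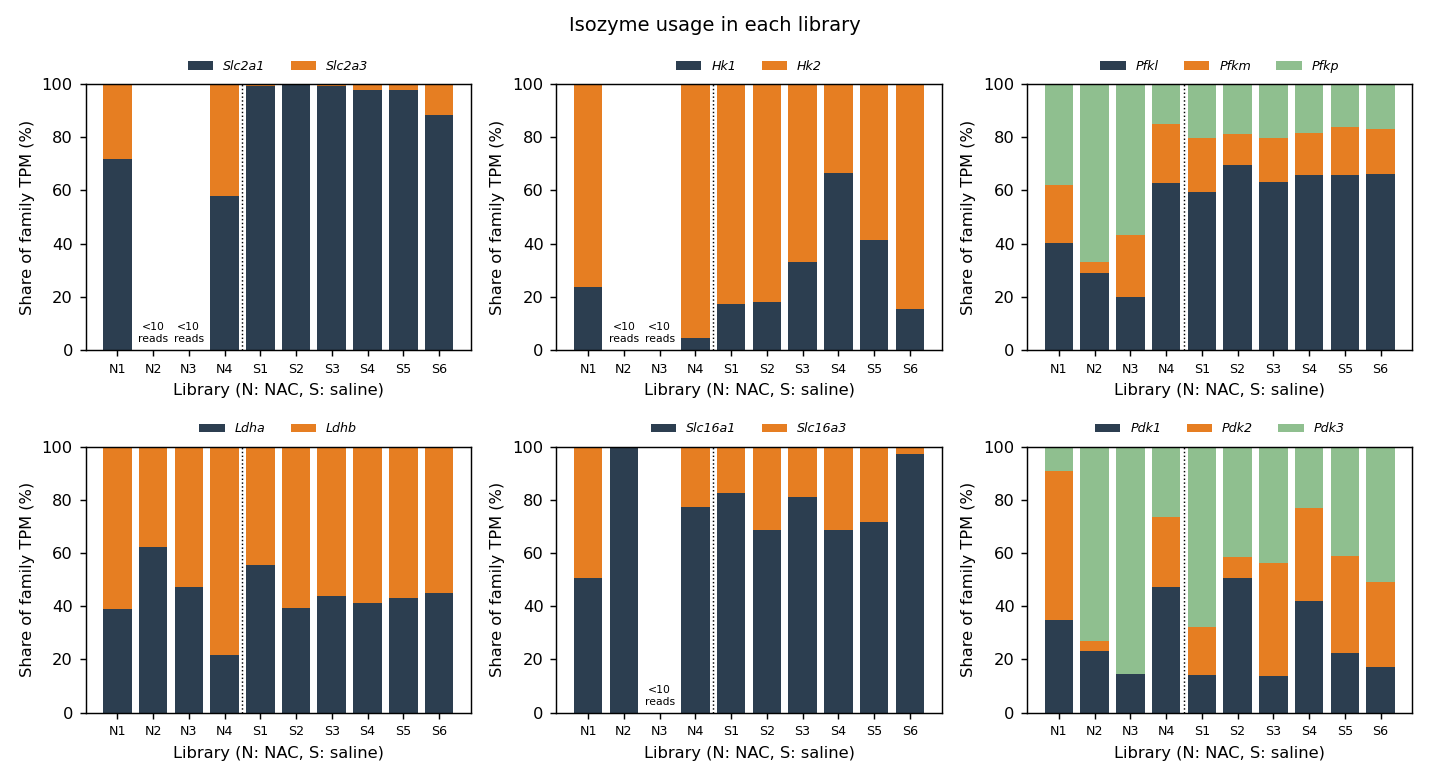
Share of each isozyme in the summed TPM of its family (percent, bars stacked to 100) in NAC libraries N1 to N4 and saline libraries S1 to S6, for the glucose transporters, hexokinases, phosphofructokinases, lactate dehydrogenases, monocarboxylate transporters and pyruvate dehydrogenase kinases. Families with under 10 reads in a library have no bar, and the Pfkl share lies at 20.0% to 62.8% in NAC and 59.4% to 69.4% in saline.

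Lactate leaves the cell through monocarboxylate transporters. Slc16a1, which encodes MCT1 (chromosome 3, 104638668 to 104658462), had 31.0, 137, 64.4 and 30.1 CPM in NAC 1 to NAC 4 and 66.4, 84.4 and 157 CPM as lowest, median and highest value in saline. NAC 1, NAC 3 and NAC 4 lay below the saline libraries and NAC 2 near the top of them (log2 fold -0.57, SE 0.43, edgeR adjusted p = 0.531, and -1.41 without NAC 2). It was -1.18 with the GC and length offsets and -0.30 with the oocyte covariate. Slc16a3, which encodes MCT4, a form of strongly glycolytic cells, had 0 to 11.5 CPM in NAC and 2.22 to 17.4 CPM in saline. Its share of the pair's TPM was 49.3%, 0% and 22.7% in NAC 1, NAC 2 and NAC 4 and 2.82% to 31.2% in saline (exact permutation p = 0.833, adjusted p = 1, NAC 3 left out with under 10 reads).

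Pyruvate enters mitochondria through a carrier of the subunits Mpc1 and Mpc2. Mpc1 (chromosome 17, 8282904 to 8297661) had 40.4, 111, 40.3 and 58.5 CPM in NAC 1 to NAC 4 and 55.7, 75.0 and 127 CPM as lowest, median and highest value in saline (log2 fold change -0.34, SE 0.36, edgeR adjusted p = 0.657). Mpc2 (chromosome 1, 165460637 to 165481214) had 64.2, 36.9, 64.4 and 90.8 CPM in NAC 1 to NAC 4 and 51.8, 85.7 and 104 CPM in saline (log2 fold change -0.37, SE 0.32, edgeR adjusted p = 0.581). Both subunits overlapped between groups, and their values depended on single libraries and on scale. The log2 fold of Mpc1 was -0.75 without NAC 2, -0.22 without NAC 1, -0.21 without saline 2, -0.05 on the log2 TPM scales and -0.67 with the GC and length offsets. That of Mpc2 was -0.71 without NAC 4, -0.18 without NAC 2, 0.064 on the log2 TPM scales and -0.62 with the offsets. Pcx, pyruvate carboxylase, which makes oxaloacetate (chromosome 19, 4510472 to 4621752), had 31.7, 10.2, 8.05 and 10.2 CPM in NAC 1 to NAC 4 and 19.3, 28.6 and 51.8 CPM in saline. NAC 1 lay inside the saline range and the other NAC libraries below it (log2 fold -0.93, SE 0.49, edgeR adjusted p = 0.363), or -1.72 without NAC 1. Per length the order differed: Pcx had 19.1, 2.38, 2.01 and 37.8 TPM in NAC 1 to NAC 4 and 5.69 to 19.1 TPM in saline, with NAC 4 the highest of the 10 libraries.

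The pyruvate dehydrogenase complex, which commits pyruvate to acetyl-CoA, and the kinases that switch it off did not share the lower values of glycolysis in the fit of all libraries. The 7 genes had a median log2 fold of 0.14, with 3 below 0 and 0 at an unadjusted p under 0.05. The 15 tested hexokinase and glycolytic step genes had a median of -0.87, with 12 below 0 and 8 at an unadjusted p under 0.05 and lower in NAC, as 8.34% of all tested genes were. That contrast was not tested, and NAC 2 weighed on it most: without NAC 2 the median of the 7 was -0.34 with 6 below 0, and without NAC 3 it was 0.02 with 3 below 0. Without both, all 7 were below 0, with a median of -0.47 beside -0.74 for the 15. In that fit 3 of the 7 and 8 of the 15 were lower at an unadjusted p under 0.05, against 9.65% of all genes. Quality weights in limma-voom on all libraries were lowest for NAC 2, at 0.245, and highest for NAC 3, the library with the fewest reads, at 2.23. By that method the median was -0.53 for the 7, with 5 below 0, and -0.97 for the 15. When GC content and length entered the fit as offsets, the medians were -0.17 for the 7 and -0.40 for the 15.

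Pdha1, the catalytic alpha subunit (chromosome X, 160122209 to 160138413), had 30.3, 96.2, 80.5 and 41.9 CPM in NAC 1 to NAC 4 and 25.0, 37.8 and 45.3 CPM as lowest, median and highest value in saline. NAC 2 and NAC 3 lay above all saline libraries and NAC 1 and NAC 4 inside their range (log2 fold 0.67, SE 0.38, edgeR adjusted p = 0.393), but 0.25 without NAC 2 and -0.08 without NAC 2 and NAC 3. Pdhb, the beta subunit, had 74.3 to 342 CPM in NAC and 113 to 207 CPM in saline. Dlat, the acetyltransferase, had 53.7 to 77.8 CPM in NAC and 53.6 to 82.0 CPM in saline, and Dld, the dehydrogenase shared with other complexes, 52.7 to 307 CPM in NAC and 49.0 to 123 CPM in saline. NAC 2 was the highest of the 10 libraries for Pdha1, Pdhb and Dld.

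The pyruvate dehydrogenase kinases varied widely between NAC libraries. Pdk3, with the largest mean share of the 3 (chromosome X, 93764607 to 93832201), had 4.33, 61.4, 121 and 19.3 CPM in NAC 1 to NAC 4 and 26.8, 40.2 and 49.1 CPM as lowest, median and highest value in saline. NAC 2 and NAC 3 lay above and NAC 1 and NAC 4 below all saline libraries, so the log2 fold of 0.14 (SE 0.62, edgeR adjusted p = 0.931) became -1.69 without NAC 2 and NAC 3. Pdk1, a textbook HIF-1 target, had 23.8 to 69.6 CPM in NAC and 19.6 to 53.2 CPM in saline, and Pdk2 0 to 23.1 CPM in NAC and 5.65 to 50.9 CPM in saline. Pdk1 made up 14.4% to 47.2% of kinase TPM in NAC and 13.8% to 50.6% in saline (exact permutation p = 0.771, adjusted p = 1).

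Ratios across the branch point did not separate the groups. The log2 ratio of summed kinase TPM to that of Pdha1 and Pdhb averaged -1.26 across the 4 NAC libraries (SD 0.52) and -1.52 across the 6 saline libraries (SD 0.47; exact permutation p = 0.438, adjusted p = 1). The log2 ratio of lactate dehydrogenase to Pdha1 and Pdhb was 3.59, 1.64, 4.03 and 3.91 in NAC 1 to NAC 4 and 3.38 to 4.21 in saline (exact permutation p = 0.571, adjusted p = 1). NAC 2 lay below every other library and the other NAC libraries inside the saline range. Of the 11 shares and ratios, 1 had an unadjusted exact permutation p under 0.05, the Pfkl share, and 0 passed the adjustment.

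Other genes of the same pathways were taken as a list of 40, of which 21 passed the filter for low counts. Their median log2 fold was -0.53 with 17 below 0, and 0 passed edgeR's adjusted p while 3 had an unadjusted p under 0.05, all lower in NAC, where 8.34% of all tested genes were that low and 16.2% passed in either direction. Bsg, basigin, the chaperone that brings MCT1 and MCT4 to the membrane, had 471, 278, 379 and 433 CPM in NAC 1 to NAC 4 and 464, 839 and 1084 CPM as lowest, median and highest value in saline (log2 fold change -0.98, SE 0.30, edgeR adjusted p = 0.135, and -0.26 with the GC and length offsets). Pck2, the mitochondrial PEP carboxykinase, had 69.6 to 109 CPM in NAC and 90.7 to 189 CPM in saline (log2 fold -0.72), and Fbp1, a gluconeogenic phosphatase, 0 to 6.98 CPM in NAC and 8.31 to 21.0 CPM in saline (log2 fold -1.75). Gpd1l, a glycerol-phosphate dehydrogenase relative, had 10.1 to 52.6 CPM in NAC and 6.92 to 23.4 CPM in saline (log2 fold 1.10, edgeR adjusted p = 0.321, and 0.61 without NAC 4). Pdk4, a kinase induced by fasting in other tissues, was tested and averaged 3.88 CPM across the 4 NAC libraries (SD 5.67) and 8.87 CPM across the 6 saline libraries (SD 3.80). Among tissue-restricted isozymes, Ldhal6b and Pdha2 had no read in any library, and Hk3, Hkdc1 and Pklr averaged under 1 CPM in each group.

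Base composition moved with the comparison. With all tested genes in 4 equal groups by the GC content of the longest transcript, the least GC-rich had a median log2 fold of 0.44 and the most GC-rich -0.41. Most pathway genes lay in the upper groups: 11 were in the third, where their median was -0.74 and that of all genes -0.18, and 11 in the fourth, where their median was -1.04 and that of all genes -0.41. All 10 genes at an unadjusted p under 0.05 were in these groups, 6 of 11 in the third, where 11.1% of all genes were that low, and 4 of 11 in the fourth, where 16.4% were. In the second group the 8 pathway genes had a median of 0.07 and all genes 0.15, and in the first the 3 pathway genes had -0.37 and all genes 0.44. With offsets for GC content and length the pathway genes had a median of -0.49, and 7 had an unadjusted p under 0.05, all lower, where 7.94% of all genes were that low. Among the glycolytic steps 3 of 13 did so with the offsets and 7 of 13 without them, while lactate export and pyruvate entry each had 1 with the offsets and 0 without. The part of the granulosa and stroma marker levels in these values was not tested. With the oocyte marker score as a covariate, 10 pathway genes had an unadjusted p under 0.05, all lower in NAC, where 7.15% of all genes were that low.

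**Figure D5:**
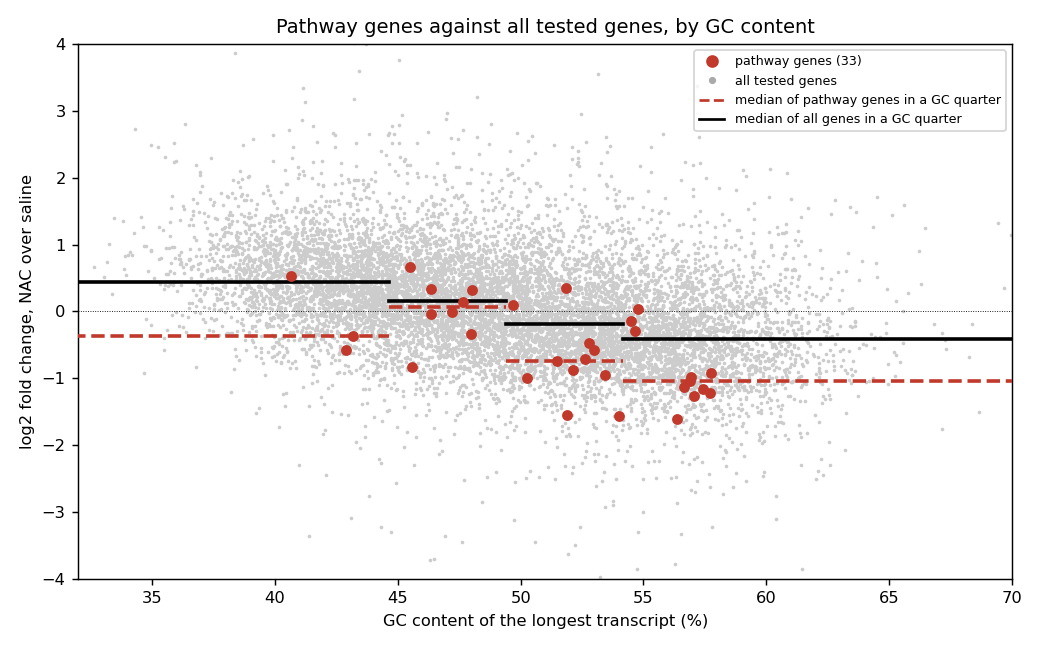
Log2 fold change, NAC over saline, against GC content of the longest transcript (percent) for the 33 tested pathway genes (red) and all tested genes (grey, points beyond 4 in either direction not drawn). Horizontal lines give medians within each of the 4 GC groups, dashed for pathway genes and solid for all genes: -0.74 and -0.18 in the third, -1.04 and -0.41 in the fourth.

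Near-identical copies took few of the reads. Transcripts at 95% identity or more over 200 bases were found for 12 pathway genes, most for Gapdh with 76. The copies of Gapdh took 0.516% to 5.92% of the reads assigned to Gapdh and its copies, and those of Mpc1 at most 9.65%. For the other genes with copies the share stayed below the highest value for Gapdh in every library.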

How the data were processed

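Gene tables of 10 libraries were read. Per the submitters' processing notes the authors used Salmon and GRCm38; the sources used here give no version, index or filters. The deposited estimated counts of reads (Salmon's NumReads) were rounded, and rows without a gene symbol (0.496% to 0.638% of reads) were left out. The deposited TPM (per-length levels from the authors' quantification) served for levels and isozyme shares. In genes with 1 annotated transcript, at least 99.2% of TPM values lay within 5% of reads over effective length; the listed lengths of genes with several transcripts are not the lengths behind their TPM, and were not used.

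NAC was compared with saline by edgeR 4.0.16 (TMM, filterByExpr, robust quasi-likelihood test, Benjamini-Hochberg over 10945 genes). Each SE given with an edgeR fold was derived as the absolute log2 fold change over the square root of the test's F statistic. The code was checked on counts simulated from edgeR's own model, which cannot show whether that model suits these data. Alternatives used DESeq2 1.42.0 and limma 3.58.1. Isozyme shares and ratios were compared by exact two-sided permutation tests (scipy 1.17.1) in libraries with 10 or more reads of the family, adjusted over 11. Copies were found with BLAST 2.17.0, and promoters came from RefSeq. Named genes were those of each family with the largest mean share, those at an unadjusted p under 0.05, and single-gene steps with Pdha1, Mpc1, Mpc2 and Pcx, 20 in all, plus 4 other pathway genes. Genes and lists were chosen with earlier results of these data known. All libraries carry 1 batch label, and with 4 NAC libraries of unequal depth precision is limited.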

Additional observations from a re-analysis of the deposited data

Results flagged for a closer look

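Of 66 groups of 4 to 6 values examined, 3 held a value far from the others, and chance gives about 1 in 20 such groups. Pcx had 31.7 CPM in NAC 1, against 8.05 to 10.2 CPM in the other NAC libraries. The Slc2a1 share of transporter TPM was 88.2% in saline 6, against 97.7% to 99.8% in the other saline libraries. The Ldha share of lactate dehydrogenase TPM was 55.4% in saline 1, against 39.2% to 45.1% in the other saline libraries.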

How the results depend on the processing

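Over all tested genes, 8 were called, against 455 by DESeq2, 447 by limma-voom with quality weights, 226 with no filter for low counts, 15 with offsets for GC content and length, 1 with the oocyte score as a covariate, 2 without NAC 2 and NAC 3, and 1 to 58 when single libraries were left out. With the replicate number as a block 1 gene was called. In that fit 7 pathway genes had an unadjusted p under 0.05, all lower in NAC, where 4.81% of all genes were that low. Same-numbered libraries deviated together with correlations of -0.0081, 0.010, 0.0093 and 0.20, so the number was not taken as a pairing. The median log2 fold of the pathway genes was -0.45 with library size alone, which moved the median of all genes to 0.19, and -0.73 on the log2(TPM + 0.1) scale. It was -0.70 to -0.57 with single libraries left out. In those fits 9 to 14 pathway genes had an unadjusted p under 0.05, where 6.96% to 12.1% of all genes were lower at that limit. All these pathway genes were lower in NAC, except 1 in the fit without NAC 1.

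Of 528 values of the 24 named genes under 22 alternatives, 484 kept direction and call, 17 were newly called and 27 changed sign, in 5 genes; the causes were not tested. Pgk1 was at -0.16 by limma-voom, -0.55 without NAC 2 and NAC 3, and -0.15 to 0.22 with single libraries left out. Pfkfb4 was at -0.82 by limma-voom, -0.93 and -1.77 on the log2(TPM + 1) and log2(TPM + 0.1) scales, -0.40 with the block, -0.15 without NAC 2 and NAC 3, and -0.48 to 0.33 with single libraries left out. Mpc2 was at 0.064 on both TPM scales, and Pdha1 at -0.080 without NAC 2 and NAC 3. Pdk3 was at -1.22 by limma-voom, -0.049 and -0.13 on the TPM scales, -0.086 with GC and length offsets, -0.20 with the block, -1.69 without NAC 2 and NAC 3, and -0.62 to 0.53 with single libraries left out.

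Of 154 values of the shares and ratios under alternatives, 0 passed the adjustment. Counted in reads, the difference (NAC minus saline, percentage points) was -5.73 for Pfkfb3 and -0.396 for Eno1, and that of the log2 kinase to dehydrogenase ratio -0.011. With no minimum of reads it was -4.17 for Pfkfb3 and -3.64 for Slc16a3. Without NAC 2 and NAC 3 it was -1.35 for Eno1, -0.011 for the log2 kinase ratio and 0.014 for the log2 lactate dehydrogenase ratio. With single libraries left out it was -18.1 to 14.9 for Pfkfb3, -0.264 to 0.157 for Aldoa, -0.388 to 0.889 for Eno1, -8.76 to 4.81 for Ldha, -10.3 to 14.4 for Slc16a3, -2.61 to 8.34 for Pdk1 and -0.69 to 0.11 for the log2 lactate dehydrogenase ratio. In NAC 3, at 116461 reads, genes under 24.2 CPM had under 3 reads.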
